A study of Mus musculus with 10 samples.

Results

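The 8 genes described here are 6 keratins of stratified epithelium (Krt4, Krt5, Krt12, Krt13, Krt14 and Krt15), the aldehyde dehydrogenase gene Aldh3b2 and the claudin gene Cldn3, out of 55487 distinct genes in the count table. They were selected on the values of ADQ against control and on the order of the control libraries, then taken by symbol, because Aldh3b2 and Cldn3 were among the genes lower in the ADQ libraries and appeared to rank the controls as the keratins do. RNA was extracted from mouse RPE/choroid, which is the retinal pigment epithelium (RPE) and the vascular choroid behind it. The 5 control libraries came from iDTR mice, whose diphtheria toxin receptor is made only after Cre recombination. The 5 ADQ libraries came from iDTR Adiponectin-Cre mice, in which Cre follows the adiponectin promoter of fat cells. Both groups received diphtheria toxin intraperitoneally, and daily dosing over 7 weeks is stated for the Cre carriers. Age, sex, litter and the dissection steps were not given in the sources used here, and the labels do not say that each library is a separate animal.

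Keratins form the intermediate filaments of epithelial cells, and each filament pairs a type I with a type II chain. Krt5 (type II) and Krt14 (type I) mark the basal layer of stratified epithelia, and Krt15 (type I) is another basal-layer chain. Krt4 (type II) and Krt13 (type I) are chains of the upper layers of moist, non-cornified epithelia such as conjunctiva, and Krt12 (type I) is the chain characteristic of the corneal epithelium. The RPE is a simple epithelium, whose keratins are of the Krt8 and Krt18 kind. Cldn3 is a sealing protein of tight junctions, and Aldh3b2 belongs to a family of enzymes that oxidise fatty aldehydes.

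Levels below are in CPM, the count of a gene as a share of the library, scaled with the TMM factors of edgeR so that libraries of different depth can be compared. The libraries held 43.6 to 64.1 M counts, a depth at which 3 counts, the limit that a count of 0 allows, equal 0.0464 to 0.0687 CPM. That limit covers counting error only. The labelled tissue was present in every library: the summed level of 8 RPE markers was 33234 to 47574 CPM in control and 28602 to 42092 CPM in ADQ, and that of 6 endothelial markers was 833 to 1008 and 699 to 985 CPM. Adipoq, whose promoter drives Cre, had 177, 402, 240, 237 and 0 counts in controls 1 to 5 and 8 to 77 counts in ADQ, so control 5 did not match the other controls in this gene. In bulk tissue, fewer epithelial cells and less RNA per cell cannot be told apart.

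Stratified epithelial keratins were plentiful in 4 control libraries and at a trace level in control 2 and all ADQ libraries. The 6 keratins summed to 7453, 112, 106086, 2990 and 25971 counts in controls 1 to 5, and to 48, 89, 81, 32 and 42 counts in ADQ 1 to 5. Control 3 alone held 74.4% of all keratin counts of the controls. As a share of the library, these keratins made up 0.212% of counts in control 3 and 0.000220% in control 2, a 967-fold range within a single group. The ADQ shares ran from 6.55e-05% to 1.79e-04%, all under that of control 2. The spread between control libraries was thus wider than the gap between control 2 and the ADQ libraries.

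**Figure D1:**
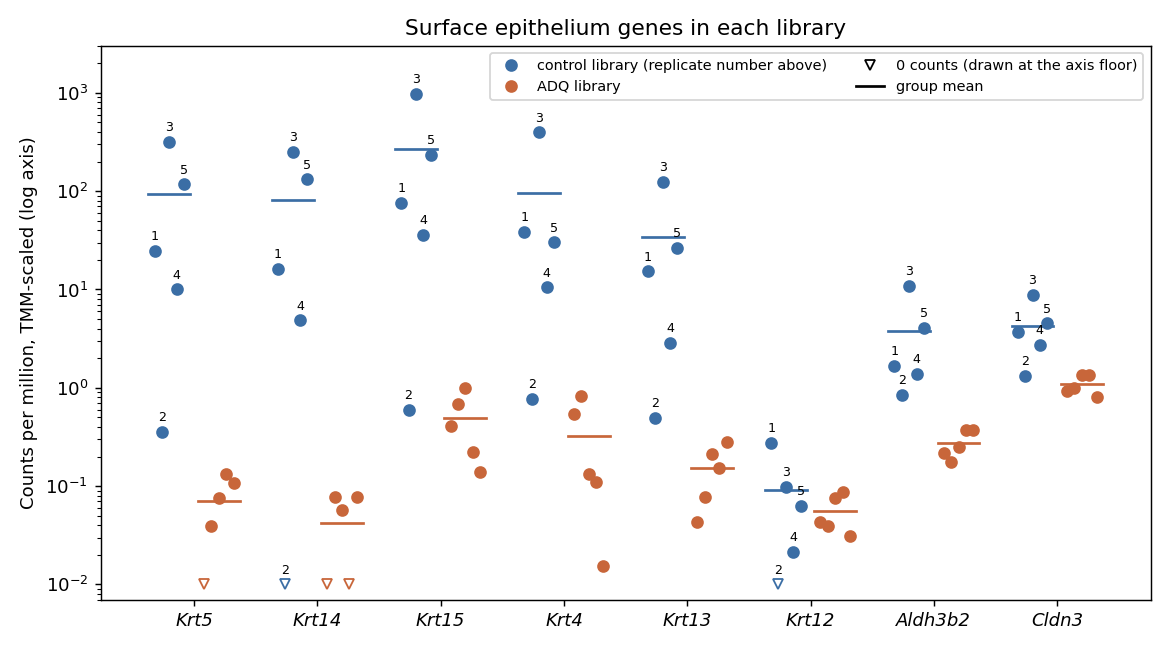
TMM-scaled CPM (log axis) of the 8 genes in each of the 5 control (blue, replicate number above the point) and 5 ADQ (orange) libraries, with group means as lines and open triangles for 0 counts. Controls 3 and 5 stand highest for Krt5 (316 and 117 CPM), control 2 stands near the ADQ libraries, and Krt12 reaches at most 0.275 CPM.

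Among the basal-layer chains, Krt5 stood at 24.7, 0.355, 316, 10.03 and 117 CPM in controls 1 to 5. In ADQ 1 to 5 it stood at 0, 0.0391, 0.0763, 0.132 and 0.108 CPM, or 0, 2, 4, 6 and 7 counts. Every control, control 2 included, lay above every ADQ library. Krt5 (ENSMUSG00000061527) lies on chromosome 15 at 101707070 to 101712898 (GRCm38, minus strand). Its partner Krt14 (ENSMUSG00000045545; chromosome 11, 100203162 to 100207548) stood at 16.3, 0, 253, 4.85 and 132 CPM in the controls and at 0, 0.0783, 0.0572, 0 and 0.0774 CPM in ADQ. For Krt14 the groups overlapped through control 2, which had 0 counts.

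Krt15 (ENSMUSG00000054146; chromosome 11, 100131758 to 100135928) was the most abundant of the 6 in controls 1, 3, 4 and 5, in counts and per kilobase of exon. It stood at 75.7, 0.592, 980, 36.2 and 234 CPM in controls 1 to 5 and at 0.411, 0.685, 0.992, 0.22 and 0.139 CPM in ADQ 1 to 5. Control 2 fell inside the ADQ range, and the other controls lay at least 36.2 CPM high. The SD of log2 CPM (prior count 2) over the 5 controls was 3.99 for Krt15 and 3.73 for Krt5, larger than in 99.99% and 99.97% of the 20684 genes tested. Over the 5 ADQ libraries the corresponding SDs were 1.04 and 0.84.

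Of the chains of moist upper layers, Krt13 ranked the controls as the basal chains did and Krt4 did not. Krt4 (ENSMUSG00000059668; chromosome 15, 101918535 to 101924735) stood at 38.5, 0.77, 395, 10.5 and 30.1 CPM in controls 1 to 5. Its ADQ values were 0.541, 0.822, 0.134, 0.11 and 0.0155 CPM, so that control 2 lay within the ADQ range. Unlike the basal chains, Krt4 was higher in control 1 than in control 5. Krt13 (ENSMUSG00000044041; chromosome 11, 100117327 to 100121566) stood at 15.3, 0.493, 124, 2.85 and 26.7 CPM in the controls and at 0.0433, 0.0783, 0.21, 0.154 and 0.279 CPM in ADQ, with every control above every ADQ library.

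The corneal chain was nearly absent. Krt12 (ENSMUSG00000020912; chromosome 11, 99415666 to 99422259) had 12, 0, 5, 1 and 3 counts in controls 1 to 5 and 2, 2, 4, 4 and 2 counts in ADQ 1 to 5. Control 3, with 16223 counts of Krt5, held 5 counts of Krt12. Krt12 averaged 0.0913 ± 0.109 CPM over controls and 0.0555 ± 0.025 CPM over ADQ (SD, n = 5 each), and its order of controls differed from that of every other gene of the group. Of the 50-base words of its transcript, 42.0% also occur, on either strand, in the overlapping non-coding gene A830036E02Rik, and how such reads were counted was not given in the sources used here. That gene too stood at 0.396 CPM or less in all 10 libraries. The keratin of the controls thus came nearly without the chain that defines corneal epithelium.

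Start-site sequences were compared between keratins of the group and the junction gene Cldn3, which lies on another chromosome. RefSeq (GRCm38.p6) gave entries for 5 of the 8 genes (Cldn3, Krt5, Krt12, Krt13 and Krt14), and the 250 bases before the start site are printed for Krt5 and Krt13, which varied together across libraries, for Krt12, which did not, and for Cldn3. The Krt14 entry begins 1518 bases inside the GENCODE gene and is not printed. Krt13 has a second entry, which begins 989 bases inside the gene and is not printed either. Capitals mark a match to TATAAA or ATAAAA, and both strands were searched.
Krt5 (chr15:101712906-101713155, minus strand): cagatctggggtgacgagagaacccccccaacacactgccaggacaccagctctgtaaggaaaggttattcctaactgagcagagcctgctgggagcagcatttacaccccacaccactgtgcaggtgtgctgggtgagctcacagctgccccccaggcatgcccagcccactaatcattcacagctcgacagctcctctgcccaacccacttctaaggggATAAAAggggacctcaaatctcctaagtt
Krt13 (chr11:100121567-100121816, minus strand): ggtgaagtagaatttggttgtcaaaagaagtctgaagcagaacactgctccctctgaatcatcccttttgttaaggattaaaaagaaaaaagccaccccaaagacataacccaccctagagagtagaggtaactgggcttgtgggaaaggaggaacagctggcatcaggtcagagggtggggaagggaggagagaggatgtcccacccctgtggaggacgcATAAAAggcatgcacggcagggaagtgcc
Krt12 (chr11:99422260-99422509, minus strand): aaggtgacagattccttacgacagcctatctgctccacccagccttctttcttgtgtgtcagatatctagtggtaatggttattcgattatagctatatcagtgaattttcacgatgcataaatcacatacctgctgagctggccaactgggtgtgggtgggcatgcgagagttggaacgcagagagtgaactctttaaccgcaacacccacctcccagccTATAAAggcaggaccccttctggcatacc
Cldn3 (chr5:134985964-134986213, plus strand): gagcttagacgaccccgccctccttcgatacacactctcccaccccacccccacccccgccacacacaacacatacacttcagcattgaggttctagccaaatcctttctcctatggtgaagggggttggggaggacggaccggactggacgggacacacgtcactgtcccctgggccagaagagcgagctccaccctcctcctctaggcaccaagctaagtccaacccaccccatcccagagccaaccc
The printed Krt5 and Krt13 windows carry ATAAAA and that of Krt12 carries TATAAA, each with its first base 29 bases before the start site. The second Krt13 entry holds neither. Of 32851 promoters of this length, 17% hold ATAAAA, 12.4% hold TATAAA, and 0.661% hold either at exactly that position on the gene's strand. Krt12, near 0 here, shares this layout with Krt5 and Krt13, and no match was found in Cldn3. The core of the p53-family motif occurs in the Krt5 and Cldn3 windows and in 63.5% of all promoters. CCACCC, in 28.1% of promoters, occurs in the Cldn3, Krt12, Krt13 and Krt14 windows. GCCNNNGGC, the AP-2 type core, occurs in 13.7% of promoters and in none of the windows of the group. These matches are descriptions of the letters and not of binding.

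The mix of chains differed between the control libraries. Krt4 reached 1.56, 1.25 and 1.05 times the Krt5 count in controls 1, 3 and 4, but 0.257 times in control 5. Of the reads of this pair, Krt4 took 20.4% in control 5 (exact binomial 95% interval 19.5 to 21.4%), against 60.9% (59.0 to 62.7%) in control 1, 55.5% (55.04 to 56.1%) in control 3 and 51.2% (47.9 to 54.4%) in control 4. These intervals cover counting error only. Krt13 took 16.9% of the Krt13 and Krt14 reads in control 5, against 48.3%, 33.0% and 37.0% in controls 1, 3 and 4. Basal chains were therefore a larger part of the keratin reads in control 5 than in controls 1, 3 and 4, and chains of moist upper layers a smaller part. Krt15 took 44.3%, 47.4%, 56.2% and 43.4% of the 6 keratins in controls 1, 3, 4 and 5. In control 2, only 112 counts were available, with Krt4 at 39 and Krt14 at 0.

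**Figure D2:**
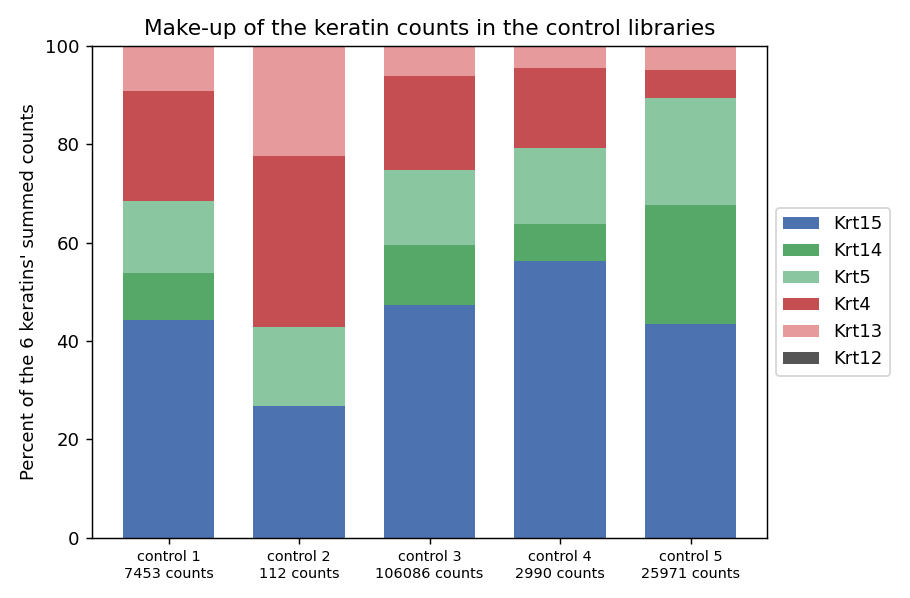
Share of each keratin (percent, bars sum to 100) in the summed counts of the 6 keratins, for each control library, with the summed count under each bar. Krt4 takes 5.58% in control 5 against 16.3 to 22.5% in controls 1, 3 and 4, Krt14 takes 24.4% against 7.53 to 12.2%, and the bar of control 2 rests on 112 counts.

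Per kilobase of exon, the mean control level was 150 CPM per kilobase for Krt15, 46.1 for Krt14, 44.6 for Krt4, 42.7 for Krt5, 18.6 for Krt13, 3.34 for Cldn3, 1.76 for Aldh3b2 and 0.0493 for Krt12. The SD over controls exceeded the mean for every gene in that order except Cldn3. All genes were measured in the same libraries, so this spread does not tell whether neighbouring ranks differ. In every control library Krt15 lay above Krt14, and Aldh3b2 lay above Krt12. Within single libraries Krt15 ranked first in controls 1, 3, 4 and 5, and Krt14 ranked above Krt5 in control 5 alone (74.8 against 53.4 CPM per kilobase). In the ADQ libraries, where the 6 keratins summed to 292 counts, Krt15 gave 42.8% of them, Krt4 27.4% and Krt13 14.4%. Krt4 alone varied there from 1 to 42 counts, with ADQ 1 and ADQ 2 high.

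Aldh3b2 was lower in ADQ and kept a measurable level in every library. Aldh3b2 (ENSMUSG00000075296; chromosome 19, 3972328 to 3981646, plus strand) stood at 1.67, 0.849, 10.9, 1.38 and 4.03 CPM in controls 1 to 5. In ADQ 1 to 5 it stood at 0.216, 0.176, 0.248, 0.374 and 0.371 CPM. All controls lay above all ADQ libraries, and control 2 lay 2.27-fold above the highest ADQ library. Its 50-base words are shared with Aldh3b1 and Aldh3b3 to 24.2%, so its separate count is uncertain. Its paralog Aldh3b1 showed no such gap, with control libraries at 34.5 ± 2.80 CPM and ADQ libraries at 35.7 ± 4.29 CPM (SD, n = 5 each), and Aldh3b3 stayed between 0.229 and 0.43 CPM in all 10 libraries.

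Cldn3 (ENSMUSG00000070473; chromosome 5, 134986214 to 134987472, plus strand) stood at 3.73, 1.32, 8.76, 2.72 and 4.51 CPM in controls 1 to 5, and at 0.93, 0.998, 1.34, 1.34 and 0.805 CPM in ADQ 1 to 5. Control 2 lay inside the ADQ range here, in contrast to Aldh3b2. None of its 50-base words occur in another gene. The range over controls was 6.62-fold for Cldn3 and 12.8-fold for Aldh3b2, against 891-fold for Krt5 and 1656-fold for Krt15. Per 1000 keratin counts, Cldn3 had 21.9, 4.23, 42.1 and 8.36 counts in controls 1, 3, 4 and 5, so that it was not a fixed part of the keratin signal. Over the ADQ libraries, where keratin reads were at a trace, Cldn3 remained at 1.08 ± 0.244 CPM.

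**Figure D3:**
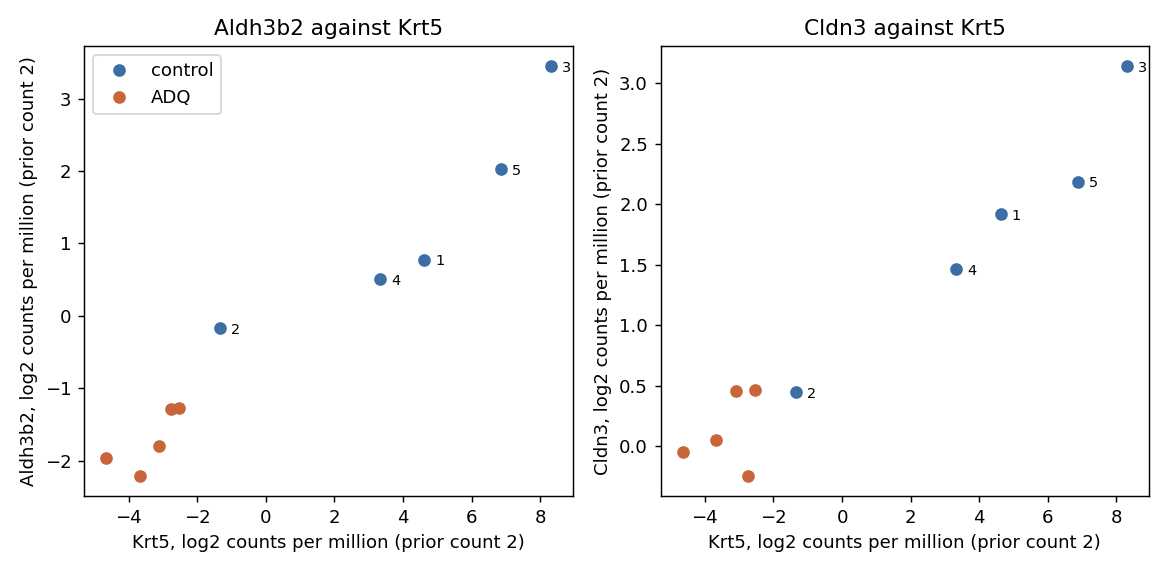
Log2 CPM (prior count 2) of Aldh3b2 (left) and Cldn3 (right) against that of Krt5, with 1 point per library, control in blue with its replicate number and ADQ in orange. In both panels control 3 is highest and control 5 next, and control 2 lies at the low end of the controls, within the ADQ range of Cldn3 but above that of Aldh3b2.

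The contrast of ADQ with control is a description here, because it was among the values that chose these genes. With edgeR's quasi-likelihood test over all 20684 genes, 171 genes (0.827%) passed an adjusted p of 0.05, of which 153 (0.74%) were higher and 18 (0.087%) lower in ADQ, and Aldh3b2 and Cldn3 are 2 of them. Aldh3b2 had a log2 fold change of -3.75 (SE 0.70, edgeR adjusted p = 0.0355) and Cldn3 one of -1.96 (SE 0.41, edgeR adjusted p = 0.0435). Of the keratins, Krt5, Krt15, Krt4 and Krt13 passed the low-count filter and had log2 fold changes of -10.28, -9.09, -8.23 and -7.71, with edgeR adjusted p from 0.0846 to 0.115. All 6 tested genes of the group lay at a log2 fold change of -1 or less, as did 1.43% of all genes tested. The SE of the 4 keratin values ran from 1.68 to 2.10 on the log2 scale. Their size depended on the libraries richest in keratin. Without controls 3 and 5 together, Krt5, Krt15, Krt4 and Krt13 had log2 fold changes of -7.28, -6.26, -5.69 and -5.28. Krt12 and Krt14 did not pass the filter. The 4 keratins that passed did so through their control counts, and Aldh3b2, with 9 counts in ADQ 2, needed control counts too. The size of change of these genes is therefore no independent evidence. Without the filter, Krt14 had a log2 fold change of -10.71 and an edgeR adjusted p of 0.155, and Krt12 one of -0.68 with an edgeR adjusted p of 0.81. Of the 8 genes, 3 (Krt5, Krt13 and Aldh3b2) had all controls above all ADQ libraries, a pattern of 1.07% of the genes tested.

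Both calls stood close to the threshold, and leaving out 1 library moved the adjusted p across it, mostly with little change in the fold. Among the 10 fits that each left out 1 library, Cldn3 was under 0.05 only without control 2 (edgeR adjusted p = 0.0148) and lost its call in all others. It reached 0.135 without ADQ 2, where its log2 fold change was -1.93. Aldh3b2 kept its call without control 2, 3, 4 or 5 and lost it without control 1 (log2 fold change -3.93, edgeR adjusted p = 0.0502) or any single ADQ library (up to 0.129 without ADQ 3, at a log2 fold change of -3.71). Without control 3 the log2 fold change of Aldh3b2 was smaller, at -2.82, and its edgeR adjusted p was 0.00991. Without controls 3 and 5 together, the libraries richest in keratin, Aldh3b2 had a log2 fold change of -2.22 (edgeR adjusted p = 0.00853) and Cldn3 one of -1.26 (0.0967). Without control 2, 5 of the 8 genes were under 0.05. They were Aldh3b2 and Cldn3 as before, Krt5 (edgeR adjusted p = 0.0338), Krt15 (0.0352) and a gene not tested in the fit of all libraries. Krt4 and Krt13 stayed above, at 0.0685 and 0.0530. Control 2 is the control that resembled ADQ in keratin, so the calls added without it are no support. In the authors' deposited table of 15860 genes, Krt15 and Cldn3 are the 2 of the 8 genes listed, with log2 fold changes of -5.44 (adjusted p = 0.396) and -1.21 (adjusted p = 0.113).

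The ranking of the control libraries was shared by most of the group. Krt5, Krt14, Krt15, Krt13, Aldh3b2 and Cldn3, 6 of the 8 genes, ranked the controls from high to low as 3, 5, 1, 4 and 2, and the same 6 did so when scaled by library size alone. Krt4 differed by exchanging controls 5 and 1, and Krt12 put control 1 first. Of the 20684 genes tested, 189 (0.914%) had the order of Krt5. Among the 95 genes tested with a log2 fold change of -2 or less, 56 (58.9%) had this order, which makes up 29.6% of the 189. Since the 8 genes were gathered for this order, their own agreement is a description.

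Some other genes of stratified epithelium, which the group does not name, had this order too, and most did not. The lists of regulators, junction genes and surface genes hold 67 members, of which 51 were tested. Of these, 15 (29.4%) had the order of Krt5 against 0.914% of all genes, and 40 (78.4%) were highest in control 3 against 28.0%. None of the 51 was lower in ADQ at an edgeR adjusted p under 0.05, against a background of 0.087%, although 27 were lower at an unadjusted p under 0.05 against 5.85% of all genes. DESeq2, run without the low-count filter, called 22 of the 67 lower, and voom with quality weights called 0. The median log2 fold change of the 51 was -1.01, beside 0.01 for all genes tested. Some of the 51 passed the filter through their control counts, such as Calml3 with 4 to 16 counts in ADQ. These shares and medians, and those of the single lists below, are therefore descriptions and no independent evidence.

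Transcription factors and other regulators of epithelial identity had 13 of 14 tested members with a log2 fold change under 0 and a median of -1.38. The regulators described next had the smallest unadjusted p of the list, so they are its extremes. Tfap2a and Tfap2b, by comparison, had log2 fold changes of -0.02 and 0.13. Elf3, an epithelial transcription factor, stood at 7.58, 1.70, 43.7, 2.82 and 17.7 CPM in controls 1 to 5 and at 0.747 to 1.84 CPM in ADQ. Ehf, a related factor, reached 10.5 CPM in control 3 and 2.04 CPM in control 5. Klf5, a regulator of surface epithelium that was also well expressed in ADQ, averaged 45.1 ± 12.9 CPM over controls and 28.0 ± 2.40 CPM over ADQ (SD, n = 5 each; log2 fold change -0.69, edgeR adjusted p = 0.0725). Trim29, a protein of stratified epithelia, stood at 31.2 CPM in control 3 and at 1.04 to 1.78 CPM in ADQ.

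Genes of desmosomes and hemidesmosomes, the junctions that anchor keratin filaments, had a smaller median of -0.57 over 16 tested members. Of the 16, 13 had a log2 fold change under 0, and 4 were lower at an unadjusted edgeR p under 0.05. Those 4 are the ones described next, so they are the extremes of the list. Dsp and Jup, by comparison, had log2 fold changes of -0.15 and -0.14, and Pkp3 one of 0.09. Pkp1, a desmosomal plaque protein of stratified epithelia, stood at 15.6 CPM in control 3, 3.80 in control 5 and 0.0197 in control 2. Col17a1, a hemidesmosome collagen, stood at 15.8 CPM in control 3, 6.30 in control 5 and at most 0.587 in ADQ. Ppl and Evpl, plakin proteins, were at 5.44 ± 1.29 and 8.21 ± 1.48 CPM in ADQ, and 30.7 and 37.8 CPM in control 3. The summed level of this list in ADQ, 370 to 403 CPM, lay close to that of controls 1, 2 and 4 at 372, 389 and 392 CPM.

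Water channels and other surface genes had a median of -2.51 over 21 tested members on the log2 scale, with 18 of the 21 under 0. Aqp3, Aqp5, Calml3 and S100a14, described next, had the smallest unadjusted p of the list, so they are its extremes. Gjb2, Gjb6 and Ly6d, by comparison, had log2 fold changes of -0.03, 0.09 and 0.09. Control 3 was highest in 14 of the 21, beside 12 of 14 regulators and 14 of 16 junction genes, and the lists were not tested against each other. Aqp3, a water and glycerol channel, stood at 5.73, 0.316, 73.1, 1.70 and 18.8 CPM in controls 1 to 5 and at 0.0439 to 0.526 CPM in ADQ. Aqp5, a water channel of corneal and glandular epithelium, was about equal in controls 5 and 3, at 4.16 and 4.12 CPM (edgeR adjusted p = 0.0807 for its log2 fold change of -2.51). Calml3, a calmodulin-like protein of epithelium, and S100a14, an S100 protein, reached 60.2 and 13.3 CPM in control 3. Aldh3a1, an abundant enzyme of corneal epithelium named here after its values were seen, stood at 127, 102, 166, 94.8 and 229 CPM in the controls and at 77.9 to 93.0 CPM in ADQ, with control 5 highest.

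Likeness to Krt5 was measured across the 10 libraries. Among 13961 genes whose mean reached 1 CPM, the 10 outside the group with the highest Pearson r to Krt5 in log2 CPM (prior count 2) were Asprv1, Krt6b, S100a14, Nccrp1, Calml3, Krt6a, Clca4c-ps, Krt19, Alox12e and Gsto1, with r from 0.961 to 0.993. All 10 ranked the controls as Krt5 did. The points share the same 5 control libraries and the same gap between groups, so r is given as a description. Asprv1, an aspartic protease of keratinocytes, stood at 110 CPM in control 3 and 2.19 in control 2. Gsto1, an omega-class glutathione transferase, was the most abundant of them, at 1342 CPM in control 3 against 40.9 in control 2 and 43.4 ± 2.56 in ADQ (SD, n = 5). None of the 10 was called, with edgeR adjusted p from 0.0547 (the pseudogene Clca4c-ps) to 0.143.

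**Figure D4:**
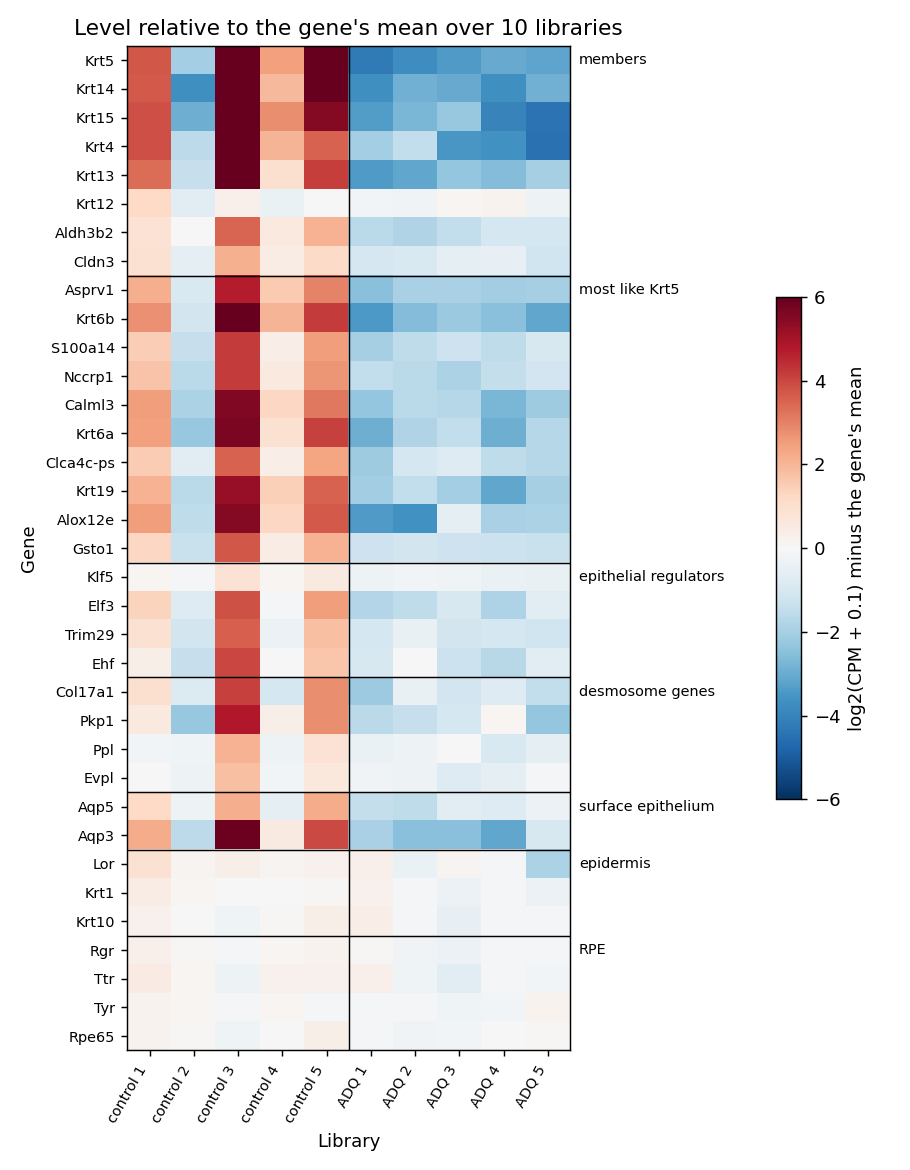
Level of 35 genes in each of the 10 libraries as log2(CPM + 0.1) minus the gene's own mean over libraries (colour, limits at -6 and 6), with the 8 genes of the group on top and named genes of other lists below. The epithelial genes are high in controls 3 and 5 and low in control 2 and ADQ, while Krt12, the epidermis markers and the RPE markers show no such pattern.

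Keratins that neighbour the group on the chromosome were divided. Mouse keratin genes form 2 clusters, with 27 on chromosome 11 and 27 on chromosome 15 in the table, and 18 of the 54 had a mean of at least 1 CPM in a group. On chromosome 11, the adjacent measured genes Krt13, Krt15, Krt19, Krt14, Krt16 and Krt17 all had the control order of Krt5. Krt19, a chain of conjunctival and other epithelia, stood at 22.0, 1.56, 191, 13.8 and 60.1 CPM in controls 1 to 5 and at 0.483 to 1.74 CPM in ADQ. Krt10 and Krt23, in the same cluster, did not vary in this way: Krt10, an epidermal chain, ranged over 16.4 to 25.1 CPM among controls and 14.4 to 26.4 CPM among ADQ libraries, and Krt23 at 34.9 to 46.7 and 36.8 to 54.7 CPM.

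On chromosome 15, Krt7, Krt6b, Krt6a and Krt5 shared the order, and Krt8 and Krt18, chains of simple epithelia, did not. Krt7, also listed as a chain of simple epithelia, stood at 122 CPM in control 3 and at 1.03 CPM or less in ADQ. Of the 5 tested keratins of that list, 2 had the order of Krt5, namely Krt7 and Krt19. Krt6a and Krt6b, chains of activated and mucosal epithelium, reached 73.1 and 97.0 CPM in control 3 and stood at 0.42 CPM or less in ADQ. Krt5 shares 12.2% of its 50-base words with these genes and 3 predicted genes, and Krt14 shares 13.9% with Krt16 and Krt17, so the separate counts of these pairs are uncertain to that extent. Krt18 averaged 1105 ± 170 CPM over controls and 937 ± 154 CPM over ADQ, and Krt8 at 425 ± 41.1 and 372 ± 51.7 (SD, n = 5 each; edgeR adjusted p = 0.447 and 0.445). Of 19 keratins tested, none was called in edgeR; the 15 outside the group had a median log2 fold change of -0.24, with 10 of them under 0.

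Claudins of other cells were divided. Cldn5 of endothelium averaged 106 ± 11.05 CPM over controls and 92.4 ± 20.5 CPM over ADQ, Cldn1 at 177 ± 34.0 and 180 ± 44.1, and Cldn2 at 59.1 ± 6.06 and 57.6 ± 8.95 (SD, n = 5 each). Cldn4, Cldn7 and Cldn23, claudins of other epithelia, were highest in control 3, at 5.60, 31.3 and 8.88 CPM, and next in control 5. Cldn4 and Cldn23 had the full control order of Krt5. Cldn23 had a log2 fold change of -2.45 (edgeR adjusted p = 0.279) and Cldn7 one of -1.32 (edgeR adjusted p = 0.183). Cldn4 did not pass the low-count filter and stood at 0.0774 CPM or less in ADQ. Of 14 claudins tested, Cldn3 was the 1 called, and the other 13 had a median log2 fold change of -0.19 with 8 of them under 0.

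Markers of other tissues that a dissection can carry were set beside these values. The 12 epidermis markers summed to 22.9 to 32.5 CPM among controls and 19.3 to 33.8 CPM among ADQ libraries. Of these, 2 were at 0 everywhere, and Krt2 and Flg, named after their values were seen, were at 0.346 CPM or less. Krt10, Krt1 and Lor were detected in every library. They averaged 21.2, 5.16 and 0.913 CPM over controls and 19.3, 4.33 and 0.573 CPM over ADQ. Hair keratins summed to at most 2.56 CPM. Goblet cell markers, of conjunctival mucus cells, summed to 5.89, 0.809, 5.99, 0.194 and 6.01 CPM in controls 1 to 5 and 0.649 to 2.15 CPM in ADQ. Muc5ac, the gel-forming mucin that defines them and named after its values were seen, was at 1.60 and 2.70 CPM in controls 1 and 5 and at most 0.0659 CPM in every other library. Lens markers were high in control 3, with a sum of 227 CPM while controls 1, 2, 4 and 5 had 30.1 to 39.3 CPM and ADQ libraries 21.4 to 94.7 CPM, led by Cryaa at 169 CPM. Meibomian and sebaceous markers summed to 1.79 to 3.43 CPM in control and 2.12 to 2.69 in ADQ. Their part in the keratin result was not tested.

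Fat and muscle markers ordered the controls differently from the keratins. The 8 adipocyte markers summed to 92.4, 192, 109, 136 and 29.4 CPM in controls 1 to 5 and to 31.6 to 56.3 CPM in ADQ. Control 2, lowest of the controls in keratin, was highest in this list, and control 5, second in keratin, was lowest. The 8 skeletal muscle markers summed to 1359, 2482, 2350, 3172 and 2277 CPM in the controls and 424 to 2162 CPM in ADQ. RPE markers were lowest in control 3 among the controls, at 33234 CPM, within the ADQ range. Whether any of these contributes to the lower Aldh3b2 and Cldn3 values was not tested.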

How the data were processed

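Bulk RNA-seq of mouse RPE/choroid was analysed in 10 libraries (5 control, 5 ADQ) from the authors' deposited table of raw counts per gene. Per the submitters' processing notes, bcl2fastq, DRAGEN, edgeR, limma and the build GRCm38 were used, without versions or roles. Counting settings, strand included, were not given in the sources used here. Besides, the authors' deposited comparison table gives log2 fold changes and p-values and was used only where named.

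Of 55774 rows, 287 repeated an Ensembl gene and were dropped, leaving 55487 genes. Genes were filtered with filterByExpr (minimum count 10, minimum total 15), scaled by TMM and tested with the robust quasi-likelihood test of edgeR 4.0.16 in R 4.3.3, with Benjamini-Hochberg adjustment at 0.05 over 20684 genes. The SE was taken as |log2 fold change| / sqrt(F). CPM use the summed counts of tested genes times the TMM factor. Depth was 43.6 to 64.1 M counts, and intervals are exact binomial (Clopper-Pearson). Because the labels do not state separate animals, p-values measure the spread between these libraries. No library pair looked like a repeated deposit of 1 library (smallest chi-square per degree of freedom 33.9 over 45 pairs).

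The genes and lists were chosen with earlier results of these data known. Named genes were the 8 genes, Adipoq and up to 4 tested genes per list with the smallest unadjusted p. The 10 genes most like Krt5 and measured claudins and Aldh3b paralogs were named too. Others are marked as chosen after their values were seen, and keratins of the same 2 clusters and further list markers were added likewise. Alternatives were other scalings and filters, DESeq2 1.42.0, voom of limma 3.58.1 with quality weights, a non-robust fit, a replicate block, leaving out each library, and, chosen after seeing the data, leaving out controls 3 and 5 together. Sequence words of 50 bases were compared over GENCODE transcripts, and promoter sequences are from RefSeq.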

Additional observations from a re-analysis of the deposited data

Results flagged for a closer look

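Each of the 8 genes was examined in control and in ADQ for a single distant library, 16 groups in all, and control 3 stood apart in 3 of them. Chance flags about 1 in 20 groups, but that rate is no yardstick here, since the genes were selected on the order of the controls and the 3 keratins vary together. Control 3 stood at 980 CPM for Krt15, 395 CPM for Krt4 and 124 CPM for Krt13, and its gap to the next control exceeded 0.71 of the whole range of the 5 controls. Control 3 was also the library with the highest lens marker sum, at 227 CPM. Without it, the mean of the other controls was 86.7 CPM for Krt15, 20.0 CPM for Krt4 and 11.3 CPM for Krt13.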

How the results depend on the processing

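Each log2 fold change of the 6 tested genes kept its sign under every alternative that gave a value, but not its size. With voom, Krt5, Krt15, Krt4 and Krt13 had -6.61, -5.71, -5.67 and -4.87, and Aldh3b2 and Cldn3 had -2.59 and -1.28. With at least 1 CPM in 5 libraries, only Krt15 and Cldn3 were tested. Of the 8 genes, 2 were called lower in the edgeR fit, 7 with DESeq2, 6 with a non-robust fit, 4 with a replicate block, 1 each with library size alone, without the count filter, with at least 1 CPM in 5 libraries (where Aldh3b2 was not tested) and without controls 3 and 5, and 0 with voom. Leaving out 1 library gave 0 to 5. Cldn3 lost its call with library size alone (edgeR adjusted p = 0.0615) and Aldh3b2 lost its call without the count filter (edgeR adjusted p = 0.123). With voom, Aldh3b2 had an adjusted p of 0.0691 and Cldn3 one of 0.124. Genes called over the whole table were 171 (18 lower), but 768 with DESeq2 (266 lower), 664 with voom (153 lower), 694 with the replicate block (302 lower), 351 without controls 3 and 5 (36 lower) and 78 to 357 without 1 library. Of the companion genes, 0 were called lower, 22 with DESeq2, 4 with the non-robust fit, 1 with the replicate block and 0 to 5 without 1 library. The causes were not tested. Deviations of same-numbered libraries from their group means had r from -0.113 to 0.163, and 1 of 5, replicate 3, matched its own number best. Correlations over so few pairs cannot tell whether a shared litter, day or batch links the numbers, so pairing was left undecided. The count of 6 genes sharing the order of controls did not change with library size scaling. At this depth Krt12, and the keratins in ADQ, rest on few counts.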
